A study of Mus musculus with 40 samples.

Results

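The question addressed here was whether the loss of Rbm20 changes the left ventricle of male mice by the same amount as that of female mice. For each gene, the quantity was the knockout change in males minus the knockout change in females, in log2 units, so that a negative value means a lower knockout change in males. It was formed for 12462 genes, those with a mean normalized value of at least 10 over the mice of each sex, out of 23568 genes listed for both sexes. The samples were knockout males, wildtype males, knockout females and wildtype females, all 10 weeks old, with 5 mice in each group and 20 mice in all. RNA came from left ventricular heart tissue, and most mice gave 2 libraries, which were averaged. The labels call the genotypes knockout and wildtype. The allele, the strain and the hour of collection are not given in the sources used here.

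RBM20 is a splicing regulator of striated muscle that acts on titin and on transcripts of calcium handling, and its loss or mutation causes dilated cardiomyopathy. The adult heart takes most of its energy from fatty acids. PPAR-alpha is the nuclear receptor that turns on many genes of fatty acid uptake and oxidation in response to lipid supply, and several of the same genes also respond to glucocorticoids and to fasting. Natriuretic peptides and the beta myosin heavy chain are genes of the fetal heart that adult ventricle expresses again under load.

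The targeted gene fell in both sexes. Rbm20 had 304, 308, 221, 263 and 266 normalized counts in knockout males, against 845, 795, 894, 865 and 809.8 in wildtype males. In females it had 354, 391.6, 289, 555 and 433 in knockouts, against 1119, 1095, 1342, 1143 and 1001 in wildtypes. No knockout mouse reached the level of a wildtype mouse of its sex, and the remaining signal does not say which part of the gene the reads came from. The knockout change was -1.63 in males and -1.52 in females on the log2 scale, and their difference was -0.11 with a 95% interval of -0.47 to 0.25.

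Libraries held 2351987 to 16973229 reads in genes. Each sex was scaled by the authors in a table of its own, so levels are not compared between males and females below, and a scale of either table cancels in the difference. Mitochondrially encoded genes took 31.1 ± 3.12% of reads in knockout males and 32.2 ± 3.16% in wildtype males (SD, n = 5 each; exact permutation p = 0.58, two-sided). In females they took 26.96 ± 3.23% in knockouts and 30.99 ± 2.51% in wildtypes (SD, n = 5 each; exact permutation p = 0.071, two-sided). For some of these genes, ko_m_106 and ko_f_95 lay outside all other mice of their sex. In ko_m_106 mt-Nd3 was 64.0 and mt-Nd6 112010, against 117.7 to 216.2 and 29982 to 75360 in the other males. In ko_f_95 they were 40.6 and 97608, against 118.8 to 231.9 and 39045 to 73123 in the other females. Both ko_m_106 and ko_f_95 are knockouts, and the headers of their columns carry higher numbers than those of all other libraries used. The cause of their values was not tested. Some samples held atrial transcripts. Myl7, the atrial myosin light chain, had 692 in wt_m_112, 8051 in ko_f_151, 1223 in ko_f_154 and 1416 in wt_f_144, against 0.213 to 1.58 in the knockout males. Values between these were 173 in ko_f_150, 130 in wt_m_113, 65.6 in wt_f_143, 42.4 in wt_m_124 and 20.2 in wt_m_139. Fat cell transcripts also differed, and Adipoq, the adipocyte hormone adiponectin, had 338 in ko_f_151 against 1.07 to 79.4 in the other knockout mice of either sex. Because these are bulk samples, fewer cells of a type and less RNA per cell cannot be told apart.

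Across all genes, no difference between the sexes passed an adjusted p of 0.05 in limma with Benjamini-Hochberg adjustment, which is 0% of the 12462 genes, and the smallest adjusted p was 0.078. An unadjusted p under 0.05 was reached by 1003 genes. Of these, 471 (3.78% of the genes tested) had a positive difference and 532 (4.27%) a negative one. On the reads recovered from the values, edgeR called 0 genes, with 1059 under an unadjusted p of 0.05, and DESeq2 called 48 genes, 15 positive and 33 negative. The DESeq2 calls held 10 of the 10 negative and 8 of the 10 positive genes with the smallest limma p, all but Nppb and Arl4c. The genes named below therefore come from the 10 of each direction with the smallest p and a mean of at least 50, and none of them passed the threshold in the limma fit.

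In the same fit the knockout changed 2253 genes in males, 1090 up (8.75%) and 1163 down (9.33%). In females it changed 1507 genes, 753 up (6.04%) and 754 down (6.05%). Both sexes shared 983 called genes, 43.6% of the male calls and 65.2% of the female calls, and 980 of them had the same direction. Of the 1270 genes called in males alone, 1112 had a female change of the same sign. Of the 524 called in females alone, 471 had a male change of the same sign. A call in 1 sex alone is not a difference between the sexes. Of those 1270 genes, 424 had an unadjusted p under 0.05 for the difference, and of those 524, 146 did, against 8.05% of all genes. These genes were picked in the same fit for a call in 1 sex and none in the other, which in itself raises that share. Across genes, the male and female changes had a Pearson r of 0.68 and a Spearman rho of 0.59 as a description (12462 genes, which are not independent replicates, and the 2 changes rest on different mice). The SD over genes was 0.36 for the male change, 0.33 for the female change and 0.28 for the difference.

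The precision of the contrast set how far the changes could be told apart. The median standard error of the difference was 0.15, with 0.25 in the lowest of 4 equal bins of mean level and 0.12 in the highest. The unadjusted 95% interval lay within ±0.5 for 7470 genes (59.9%) and within ±1 for 11499 genes (92.3%). Only 6 genes had an interval wholly beyond ±1. Among the 983 genes called in both sexes, the interval lay within ±1 for 880 (89.5%). For those genes a sex gap of more than 2-fold in the knockout change lay outside the interval of the gene, while smaller gaps could not be resolved for many of them.

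**Figure D1:**
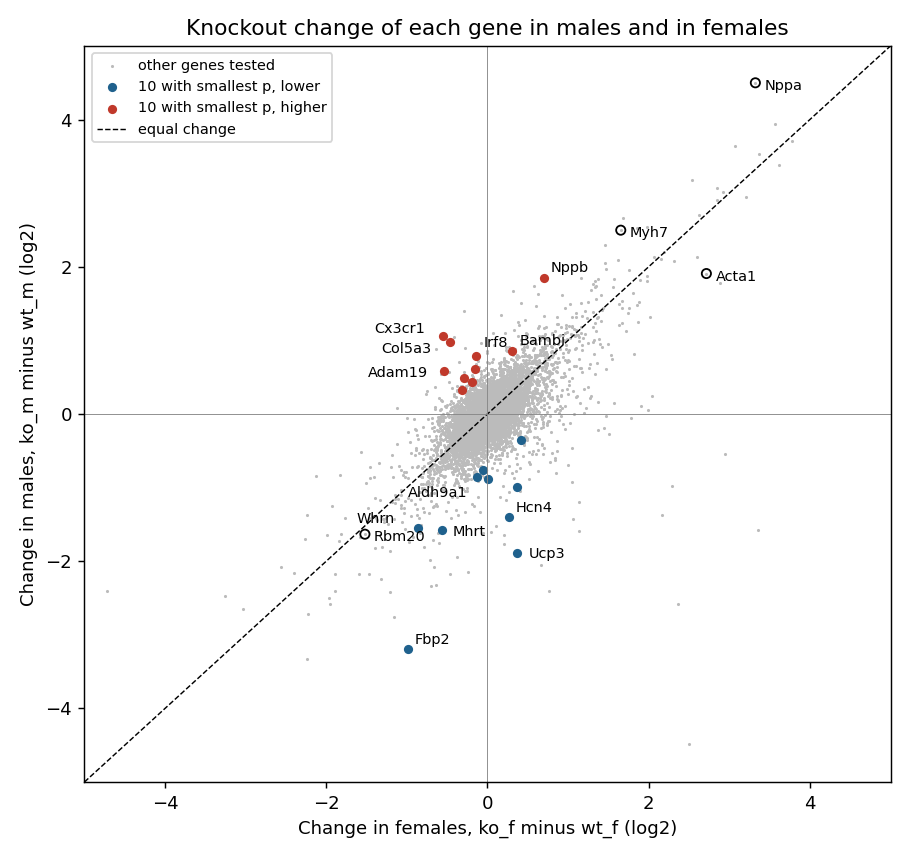
Knockout change of each of 12462 genes in males (vertical axis, log2) and in females (horizontal axis, log2). Coloured points are the 10 genes of each direction whose difference had the smallest p, open circles are Rbm20, Nppa, Myh7 and Acta1, and the dashed line marks equal change. Most genes lie along the line, while Fbp2, Ucp3 and Hcn4 lie below it and Nppb and Cx3cr1 above it.

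The genes with the smallest p and a negative difference included several enzymes of lipid and sugar use. Aldh9a1, an aldehyde dehydrogenase that takes part in carnitine synthesis, had the smallest p of all genes. It had 135, 109.8, 142.2, 132 and 152 normalized counts in knockout males, against 235, 246, 277, 240.5 and 239.8 in wildtype males. Among females it had 209, 181, 208, 271 and 184 in knockouts, against 194, 189, 179, 257 and 230.3 in wildtypes. The male groups did not overlap and the female groups did. Aldh9a1 fell by 0.89 on the log2 scale in males (limma adjusted p = 6.9e-06) and had a change of 0.00 in females, a difference of -0.89 ± 0.16 (SE; unadjusted p = 1.1e-05, adjusted p = 0.078). Its adjusted p was 6.5e-04 to 0.17 over 36 alternatives, of which 7 called it, DESeq2 among them.

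Fbp2, the muscle form of fructose bisphosphatase, which runs against glycolysis, moved down in both sexes. It had 8.68, 14.9, 32.3, 9.14 and 29.6 in knockout males, against 146, 167, 157, 181 and 143.1 in wildtype males. Its female values were 82.3, 60.0, 41.3, 36.6 and 24.99 in knockouts, against 72.6, 102, 116, 97.8 and 73.2 in wildtypes. All knockout males were under all wildtype males by a wide margin, whereas 1 knockout female lay inside the wildtype range. On the log2 scale Fbp2 fell by 3.19 in males (limma adjusted p = 2.7e-07) and by 0.99 in females (adjusted p = 0.038). The difference was -2.20 with a 95% interval of -3.11 to -1.30 (adjusted p = 0.084).

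Ucp3, the muscle uncoupling protein of the mitochondrial inner membrane, had the most negative difference of these 10 genes. It had 84.1, 61.8, 79.5, 102 and 228 in knockout males, against 347, 414, 222, 332 and 655 in wildtype males. Female Ucp3 was 196, 136, 383, 432 and 115 in knockouts, against 145, 156, 142.5, 227 and 191 in wildtypes. The male groups overlapped at 1 point, since ko_m_97 was above the lowest wildtype, and the knockout females spread to either side of their wildtypes. The change was -1.89 in males (limma adjusted p = 5.1e-04) and 0.37 in females (adjusted p = 0.55), a difference of -2.26 ± 0.49 (SE; adjusted p = 0.12). Without ko_m_97 the difference was -2.56 (adjusted p = 0.018), and over the 36 alternatives the adjusted p was 4.2e-04 to 0.28.

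A retinol enzyme and a glutamate carrier were also among the 10 genes. Retsat, which saturates retinol, averaged 217 ± 36.9 in knockout males and 363 ± 36.3 in wildtype males, and 312 ± 29.1 in knockout females and 325 ± 26.6 in wildtype females (SD, n = 5 each). Slc25a22, a mitochondrial glutamate carrier, averaged 147 ± 24.7 in knockout males and 265 ± 11.3 in wildtype males, and 222 ± 36.7 in knockout females and 242 ± 36.4 in wildtype females. Their differences were -0.69 ± 0.14 for Retsat and -0.73 ± 0.17 for Slc25a22 (SE; limma adjusted p = 0.084 and 0.15).

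Trim7, a ubiquitin ligase that binds glycogenin, was the 1 gene of the 20 with the smallest p whose change passed the threshold in both sexes with opposite signs. It had 158, 150.9, 130.4, 153.6 and 178 in knockout males, against 189, 172, 203, 214 and 202 in wildtype males. Female Trim7 was 248, 212, 207, 252 and 192 in knockouts, against 161, 155.2, 158, 209 and 148 in wildtypes. The groups of each sex overlapped only at their edges. Trim7 fell by 0.35 in males (limma adjusted p = 0.017) and rose by 0.42 in females (adjusted p = 0.0071), on the log2 scale. The difference was -0.77 with a 95% interval of -1.06 to -0.48 (adjusted p = 0.078).

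Hcn4, the pacemaker channel of the conduction system and of atrial tissue, had 39.5, 36.8, 29.3, 28.96 and 59.1 in knockout males, against 112.04, 129, 92.7, 93.5 and 81.1 in wildtype males. Female values were 101, 179, 64.1, 78.7 and 71.3 in knockouts, against 70.8, 95.4, 75.5, 69.6 and 72.9 in wildtypes. Knockout males were all below wildtype males, and the highest female value belonged to ko_f_151, the sample with the most Myl7. The difference was -1.66 ± 0.31 (SE; limma adjusted p = 0.078), with changes of -1.40 in males and 0.26 in females. It was -1.43 without ko_f_151 and -1.46 without the 4 mice with Myl7 of at least 500. That cut does not remove every sample with atrial transcripts. Myl7 was 130 in wt_m_113, which had the highest male Hcn4, and 173 in ko_f_150. It was 65.6 in wt_f_143, which had the lowest Hcn4 of the wildtype females, and 0 in wt_m_125, with Hcn4 of 93.5.

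The last of the 10 genes with a negative difference were Mhrt and Whrn, for which both sexes changed in the same direction. Mhrt, a long noncoding RNA transcribed from the myosin heavy chain locus, averaged 71.7 ± 18.9 in knockout males and 212 ± 27.4 in wildtype males, and 184 ± 30.6 in knockout females and 273 ± 38.4 in wildtype females (SD, n = 5 each). It lies on chromosome 14 from 55206135 to 55211806 on the plus strand (GRCm39), overlapping Myh7 on the minus strand from 55208141 to 55232083. Whether the counting used strand is not given in the sources used here, so reads of the 2 genes cannot be told apart where they overlap. Whrn, the scaffold protein whirlin, averaged 43.8 ± 4.07 in knockout males and 130.3 ± 16.2 in wildtype males, and 85.5 ± 10.1 in knockout females and 157 ± 18.3 in wildtype females. It fell by 1.55 in males (limma adjusted p = 6.2e-09) and by 0.87 in females (adjusted p = 8.7e-06), and the difference was -0.68 ± 0.15 (SE; adjusted p = 0.12).

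**Figure D2:**
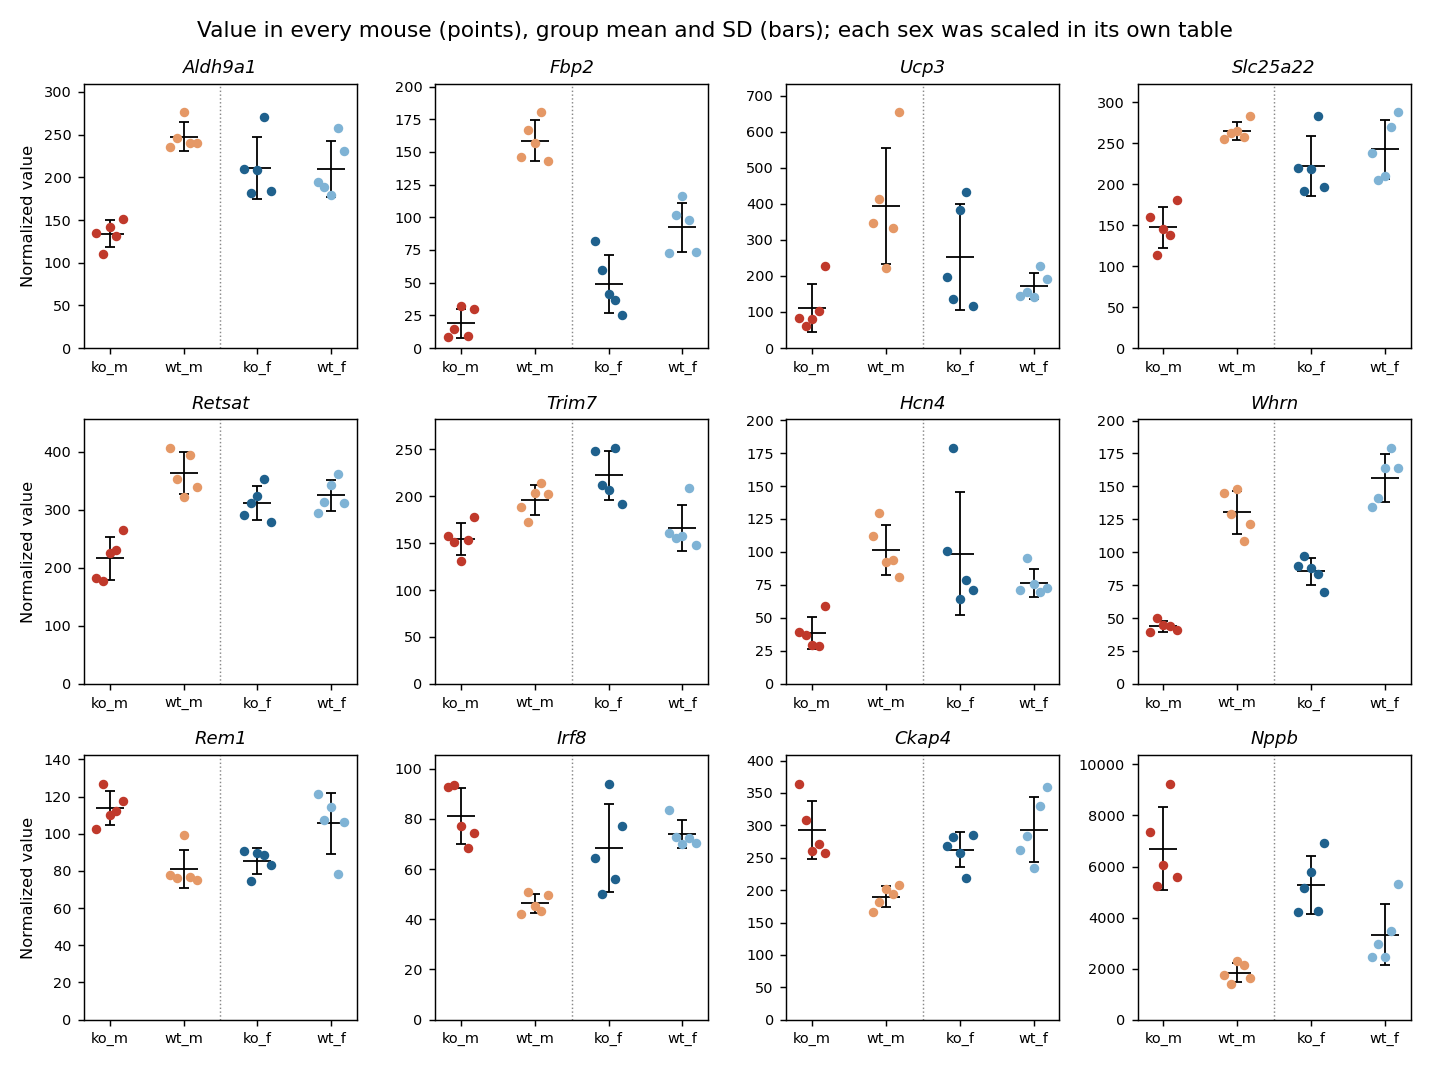
Normalized value of 12 of the 20 genes with the smallest p in every mouse, with knockout left of wildtype in males and then in females. Points are mice and bars are the mean and SD of 5 mice. In the first 8 panels the knockout males lie low, as with Fbp2 at 8.68 to 32.3 in knockout males against 143.1 to 181 in wildtype males, while in Rem1, Irf8, Ckap4 and Nppb they lie high.

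The genes with a positive difference included a calcium channel inhibitor, myeloid genes and a natriuretic peptide. Rem1, a small GTPase that inhibits voltage-gated calcium channels, had 103, 126.9, 109.8, 112.2 and 118 in knockout males, against 77.6, 76.4, 99.1, 76.5 and 75.4 in wildtype males. Among females it had 90.9, 74.4, 89.8, 88.5 and 83.2 in knockouts, against 121, 107, 115, 78.6 and 106.3 in wildtypes. The male groups did not overlap, and in females 4 of the 5 wildtypes lay above every knockout. Rem1 rose by 0.49 in males (limma adjusted p = 0.0019) and had a change of -0.29 in females (adjusted p = 0.074), giving a difference of 0.78 ± 0.15 (SE; adjusted p = 0.078). Without wt_f_143 the difference was 0.89 (adjusted p = 0.0085), and over the 36 alternatives the adjusted p was 0.0023 to 0.28.

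Irf8, a transcription factor of myeloid cells, had 92.6, 93.4, 77.3, 68.3 and 74.5 in knockout males, against 42.1, 51.0, 45.4, 43.5 and 49.6 in wildtype males. Its female values were 64.5, 50.2, 94.0, 55.9 and 77.2 in knockouts, against 83.5, 72.9, 69.9, 72.4 and 70.3 in wildtypes. Males separated fully and females did not. The difference was 0.93 ± 0.19 (SE; limma adjusted p = 0.084). Cx3cr1, the fractalkine receptor of monocytes and resident macrophages, averaged 95.2 ± 42.2 in knockout males and 44.1 ± 15.9 in wildtype males, and 44.2 ± 11.4 in knockout females and 64.5 ± 14.8 in wildtype females (SD, n = 5 each). Its difference was 1.61 ± 0.40 (SE; limma adjusted p = 0.19). Of the 20 tested members of that marker list, 1 (Cx3cr1) had an unadjusted p under 0.05 with a positive difference and 1 (Cd163) with a negative one, against 3.78% and 4.27% of all genes. The median difference of the list was -0.02, and -0.09 to 0.07 with 1 mouse left out. The summed level of the list was 3780 to 5564 in knockout males, 4508 to 5642 in wildtype males, 4099 to 5867 in knockout females and 4456 to 6524 in wildtype females.

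Nppb, which encodes B-type natriuretic peptide, had 7339, 5242, 6053, 9248 and 5603 in knockout males, against 1751, 1387, 2307, 2155 and 1629 in wildtype males. Female Nppb was 4226, 5168, 5775, 4254 and 6919.9 in knockouts, against 2471, 2957, 2448, 3463 and 5333 in wildtypes. Males separated without overlap, while wt_f_144 lay inside the range of the knockout females. Nppb rose by 1.85 in males (limma adjusted p = 1.0e-06) and by 0.70 in females (adjusted p = 0.022), and the difference was 1.15 with a 95% interval of 0.58 to 1.73 (adjusted p = 0.19). As a ratio, the male fold change was 2.23 times the female one. Without wt_f_144 the difference was 0.97 (adjusted p = 0.19).

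The other 6 genes of this direction had differences between 0.55 and 1.44 and limma adjusted p-values between 0.091 and 0.20. Ckap4, a membrane protein of the endoplasmic reticulum, averaged 293 ± 44.8 in knockout males and 190.1 ± 16.1 in wildtype males, and 262 ± 26.9 in knockout females and 293 ± 50.7 in wildtype females (SD, n = 5 each). Col5a3, a chain of type V collagen, and Adam19, a membrane metalloprotease, had differences of 1.44 ± 0.34 and 1.121 ± 0.27 (SE). Bambi, a decoy receptor that dampens TGF-beta signals, rose by 0.86 in males (adjusted p = 2.3e-06) and by 0.31 in females (adjusted p = 0.044). Fam122b, which is X-linked, and Arl4c, a small GTPase of the plasma membrane, had differences of 0.64 and 0.62. Of the 398 X-linked genes tested, 9 had an unadjusted p under 0.05 with a positive difference and 12 with a negative one. Neither share was above that of all genes, 3.78% and 4.27%, and the median difference of the X-linked genes was 0.00. Of the 11 tested members of the list of X-linked genes that escape X inactivation, 10 had a difference above 0, with a median of 0.15. Of the 11, 1 had an unadjusted p under 0.05 with a positive difference and 0 with a negative one. In males 3 rose and in females 0, against 8.75% and 6.04% of all genes.

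Among lists of at least 10 tested genes, PPAR-alpha targets had the largest share with an unadjusted p under 0.05 and a negative difference. Of 16 tested members, 9 had an unadjusted p under 0.05 with a negative difference and 0 with a positive one, against 4.27% and 3.78% of all genes, and none passed the adjusted threshold. The median difference of the list was -0.48, against 0.00 over all genes, with a median change of -0.57 in males and 0.00 in females. In males 11 of the 16 fell, against 9.33% of all genes. In females 1 fell (Ehhadh, a peroxisomal oxidation enzyme), against 6.05% of all genes, which is near that background. Per mouse, the median of the list relative to the wildtypes of the same sex was -0.77 to -0.38 in the knockout males and -0.24 to 0.19 in wildtype males, which did not overlap. In females it was -0.34 to 0.20 in knockouts and -0.14 to 0.22 in wildtypes, which overlapped, with ko_f_95 below every wildtype.

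Besides Ucp3, members with a small p included a pair of thioesterases and the gate of fatty acid entry into mitochondria. Acot1, a cytosolic acyl-CoA thioesterase, had 7.63, 7.76, 17.9, 10.2 and 14.8 in knockout males, against 48.9, 52.6, 36.8, 39.7 and 50.7 in wildtype males. Female Acot1 was 50.02, 40.8, 29.9, 22.8 and 13.8 in knockouts, against 26.8, 38.9, 41.5, 45.5 and 38.2 in wildtypes. The knockout males were all at less than any wildtype male, and the knockout females reached to both sides of the wildtypes. The difference was -1.57 ± 0.38 for Acot1 and -0.69 ± 0.16 for its mitochondrial relative Acot2 (SE; limma adjusted p = 0.19 and 0.15). These 2 genes are close relatives, and reads could have been split between them. Cpt1a, the liver form of carnitine palmitoyltransferase 1, averaged 192 ± 35.3 in knockout males and 267 ± 13.7 in wildtype males, and 304 ± 49.1 in knockout females and 266 ± 45.8 in wildtype females (SD, n = 5 each), a difference of -0.69 ± 0.17 (SE).

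Pdk4, the kinase that shuts off pyruvate dehydrogenase in fasting, and Angptl4, a secreted inhibitor of lipoprotein lipase, are on the PPAR-alpha and the glucocorticoid lists. Pdk4 had 1061, 363, 446, 1003 and 1218 in knockout males, against 2088, 2419, 1318, 1708 and 4886 in wildtype males. Female Pdk4 was 1659, 1748, 2193, 1602 and 803 in knockouts, against 971, 1271, 1442, 2807 and 1426 in wildtypes. The male groups did not overlap and the female groups did. The differences were -1.65 ± 0.51 for Pdk4 and -1.97 ± 0.70 for Angptl4 (SE; unadjusted p = 0.0038 and 0.010). Txnip, an inhibitor of thioredoxin and glucose uptake, was the only one of the 16 members with a positive difference, 0.24 with a 95% interval of -0.42 to 0.89.

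The wider list of fatty acid uptake and oxidation moved down in both sexes. Of 39 tested members, 34 fell in males, against 9.33% of all genes, and 16 fell in females, against 6.05%, and none rose in either sex. The median change was -0.52 in males and -0.27 in females. For the difference, 13 members had an unadjusted p under 0.05, all negative, against 4.27% of all genes, and the median was -0.24. The list shares 8 members with the PPAR-alpha list. Among the 31 others, 9 had an unadjusted p under 0.05 with a negative difference, with a median of -0.19. Slc27a1, a fatty acid transporter, averaged 503 ± 80.6 in knockout males and 885 ± 45.5 in wildtype males, and 816 ± 139.7 in knockout females and 945 ± 64.9 in wildtype females (SD, n = 5 each), a difference of -0.60 ± 0.15 (SE; limma adjusted p = 0.20).

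Within the beta-oxidation spiral the values were mixed. Acaa2, the thiolase of its last step, had a difference of -0.53, and Etfb, which passes the electrons on, one of -0.61 (unadjusted p = 0.0079 and 0.0086). Acadm, the medium-chain dehydrogenase, fell by 0.40 in males and by 0.32 in females on the log2 scale (limma adjusted p = 0.0080 and 0.041), with a difference of -0.07 and a 95% interval of -0.37 to 0.22. Crat, which exchanges acyl groups between CoA and carnitine, fell by 0.71 in males and by 0.52 in females. By the count of members with an unadjusted p under 0.05, other fuel lists were closer to the background. The nuclear-encoded respiratory chain had 0 of 43 such members and a median difference of -0.08, and the mitochondrially encoded genes had 0 of 13 and a median of 0.21. Of the 43 differences 38 were below 0, and all 13 of the others were above 0. In males 21 of the 43 fell and in females 7, against 9.33% and 6.05% of all genes. The citric acid cycle list had 3 of 32, all negative, among them Pdk4, against 4.27% of all genes.

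**Figure D3:**
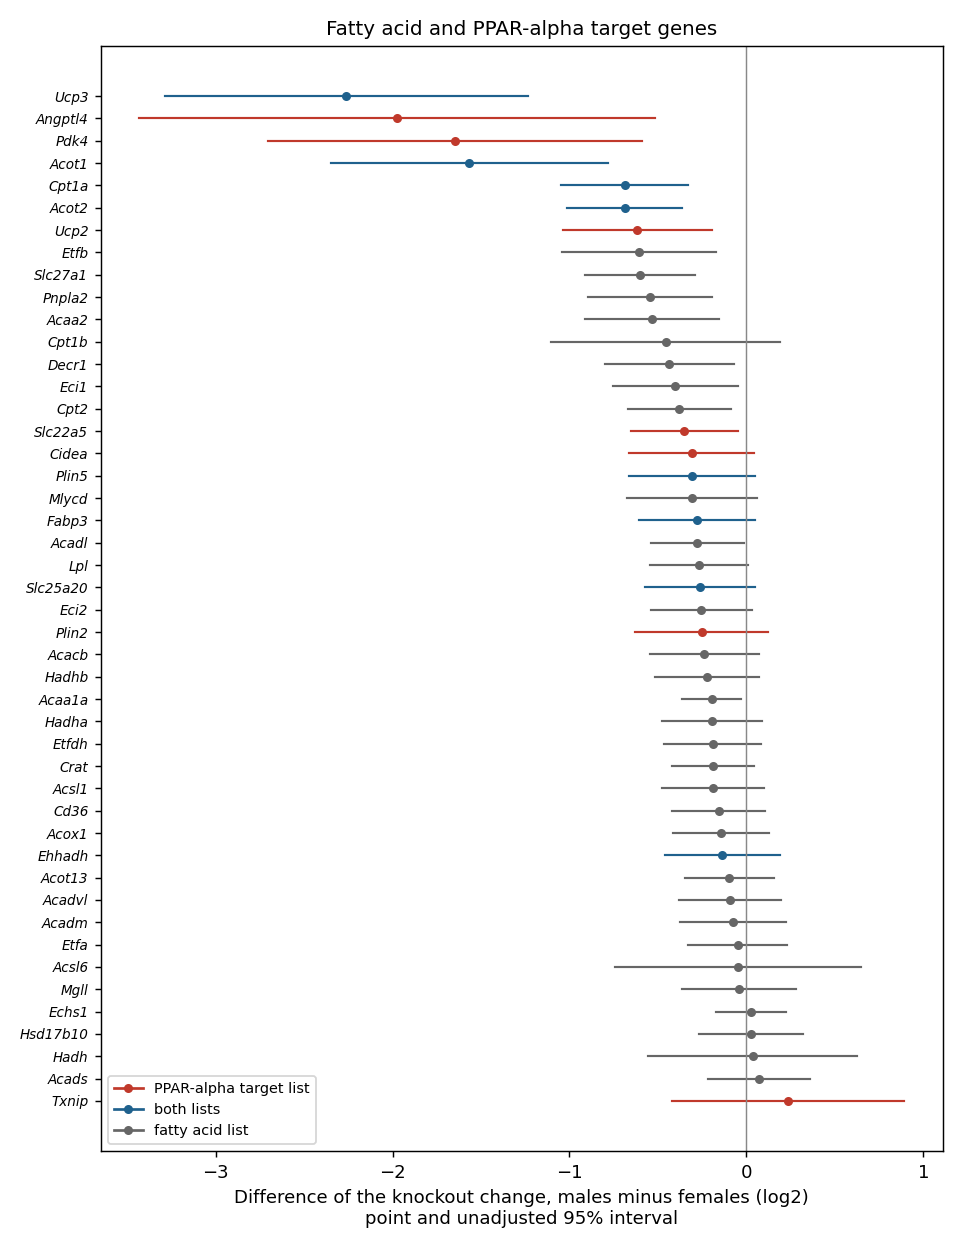
Difference of the knockout change, males minus females (log2), for tested genes of the PPAR-alpha target and fatty acid lists, as a point with its unadjusted 95% interval. Ucp3, Angptl4, Pdk4 and Acot1 lie at -1.57 or lower, and the acyl-CoA dehydrogenases Acadm and Acads lie near 0.

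Ppara, which encodes the receptor itself, had a difference of 0.26 with a 95% interval of -0.46 to 0.99, and Rxra one of -0.12. Among the 29 regulators of metabolism on that list, 2 had an unadjusted p under 0.05 with a positive difference and 4 with a negative one. Among all genes these shares were 3.78% and 4.27%. The 4 with the smallest p were Thra, the thyroid hormone receptor alpha (0.28), Nr4a3, an orphan nuclear receptor (1.04), Pparg (-0.32) and the coactivator Ppargc1b (-0.64).

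Glucocorticoid-responsive genes had negative differences of another make-up. Of 21 tested members, 9 had an unadjusted p under 0.05 with a negative difference and 0 with a positive one. Among all genes these shares were 4.27% and 3.78%. The median difference of the list was -0.58. Here the median change was -0.12 in males and 0.25 in females. Leaving out Pdk4 and Angptl4, 7 of the other 19 had an unadjusted p under 0.05, with a median of -0.52. Tsc22d3, the glucocorticoid-induced leucine zipper, had 1047, 829, 754, 891 and 939 in knockout males, against 883, 718, 822, 772 and 1238 in wildtype males. It had 1378, 2223, 1539, 1755 and 2155 in knockout females, against 1001, 996, 1134, 1529 and 779 in wildtype females. For Tsc22d3 the male groups overlapped, and 4 knockout females lay above all wildtype females. It rose by 0.74 in females (limma adjusted p = 0.0037) and its difference was -0.72 ± 0.23 (SE; unadjusted p = 0.0050, adjusted p = 0.31).

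Lcn2, a secreted carrier of siderophores, had 23.5, 13.002, 18.2, 16.7 and 26.4 in knockout males, against 51.2, 35.5, 18.9, 15.8 and 29.7 in wildtype males. Female Lcn2 was 39.9, 43.5, 37.0, 35.0 and 44.1 in knockouts, against 17.2, 20.8, 30.1, 33.3 and 15.4 in wildtypes. The female groups did not overlap and the male groups did. The difference of Lcn2 was -1.33 ± 0.37, and that of Mt1, a metallothionein, was -0.77 ± 0.21 (SE; limma adjusted p = 0.22 for each). Mt1 fell by 1.05 in males (adjusted p = 3.2e-05) and had a change of -0.28 in females. Without ko_f_151 and wt_f_144, the samples with the most Myl7 in their groups, 6 members had an unadjusted p under 0.05 with a negative difference, and the median was -0.35.

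The promoters of the genes with the smallest p were read for 5 receptor and muscle motifs. The windows reach from 250 bases before to 50 bases after the start of a gene and come from RefSeq (GRCm38.p6), which is not the build of the values. Windows were found for 9659 of the 12462 genes, and for 9 of 10 genes in each direction. The motifs were read on either strand, and each percentage is a share of all windows. The oestrogen response element was GGTCA and TGACC with 3 bases between them (0%). The letters ACANNNTGT (3.94%) stand for the androgen or glucocorticoid receptor, so a match does not tell these receptors apart. The oestrogen-related receptor site was TCAAGGTCA (0.28%). The PPAR-alpha repeat was AGGTCA and AGGTCA with 1 base between them (0.0414%). The MEF2 letters were CTA and TAG with any 4 bases between them (3.17%), so a match need not be a MEF2 site. None was in the 9 windows with a negative difference. MEF2 letters were in 2 of the 9 with a positive one, Col5a3 and Cx3cr1. ACANNNTGT was in 3 of 18 windows of the glucocorticoid list (Lcn2, Map3k6 and Mt1) and in 2 of 13 of the PPAR-alpha list (Acot1 and Txnip). The direct repeat was in 0 of those 13. Shown are the window of the gene with the smallest p, and those of 3 genes with a negative difference that hold ACANNNTGT, in capitals. Aldh9a1 lies at chr1:167349741-167350040 (plus strand), Acot1 at chr12:84009252-84009551 (plus), Mt1 at chr8:94178839-94179138 (plus) and Lcn2 at chr2:32387690-32387989 (minus), each written 5′ to 3′ along the gene.
Aldh9a1: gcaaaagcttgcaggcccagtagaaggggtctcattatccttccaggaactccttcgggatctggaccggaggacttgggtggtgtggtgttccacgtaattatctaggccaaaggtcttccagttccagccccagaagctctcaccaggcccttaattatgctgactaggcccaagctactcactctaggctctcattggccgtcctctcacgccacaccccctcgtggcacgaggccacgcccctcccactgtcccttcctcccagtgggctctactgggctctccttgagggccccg
Acot1: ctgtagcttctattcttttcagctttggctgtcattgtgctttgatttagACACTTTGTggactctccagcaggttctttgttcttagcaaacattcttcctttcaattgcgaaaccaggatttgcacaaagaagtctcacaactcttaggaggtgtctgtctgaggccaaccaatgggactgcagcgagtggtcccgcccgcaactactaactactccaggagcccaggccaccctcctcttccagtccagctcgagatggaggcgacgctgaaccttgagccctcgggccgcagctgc
Mt1: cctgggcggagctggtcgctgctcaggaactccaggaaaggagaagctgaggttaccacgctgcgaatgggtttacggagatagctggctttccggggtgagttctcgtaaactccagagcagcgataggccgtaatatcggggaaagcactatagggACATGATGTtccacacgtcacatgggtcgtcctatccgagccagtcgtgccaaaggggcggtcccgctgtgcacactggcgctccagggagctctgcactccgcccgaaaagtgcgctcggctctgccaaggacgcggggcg
Lcn2: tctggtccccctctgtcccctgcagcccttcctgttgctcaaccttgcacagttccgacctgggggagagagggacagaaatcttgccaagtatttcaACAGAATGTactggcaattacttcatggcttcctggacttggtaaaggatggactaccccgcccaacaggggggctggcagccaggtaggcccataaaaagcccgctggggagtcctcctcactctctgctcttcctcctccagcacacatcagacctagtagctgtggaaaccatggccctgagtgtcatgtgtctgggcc
A match describes these letters only, and no match says nothing of the factor.

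Of 17 tested genes of the circadian clock, 2 rose in males (8.75% of all genes did) and 6 in females (6.04%). None fell in either sex. The wildtype females were not uniform. Their list medians, as log2 over the mean of the wildtype females, were -0.27 in wt_f_143 and -0.51 in wt_f_144. In the other wildtype females they were 0.12 to 0.37, which overlapped the knockout females at 0.23 to 0.55. A fit without both wt_f_143 and wt_f_144 was not run. Per2, a repressor of the clock, had 190.5, 236, 193, 174 and 227 in knockout males, against 216, 229, 250.2, 196 and 204 in wildtype males. In females it had 396, 463, 332, 337 and 353 in knockouts, against 279.7, 250.2, 369.6, 189 and 133 in wildtypes. The male groups overlapped, with 3 knockouts below every wildtype, and only wt_f_142 lay within the range of the knockout females. The difference of Per2 was -0.80 ± 0.25 (SE; unadjusted p = 0.0043, limma adjusted p = 0.30). In all, 4 clock genes had an unadjusted p under 0.05 with a negative difference and 1, Bhlhe40, with a positive one. Among all genes these shares were 4.27% and 3.78%, and the list median was -0.28. Without wt_f_144 the negative count was 1 and the median -0.13, and without wt_f_143 or without ko_f_95 the count was 2.

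**Figure D4:**
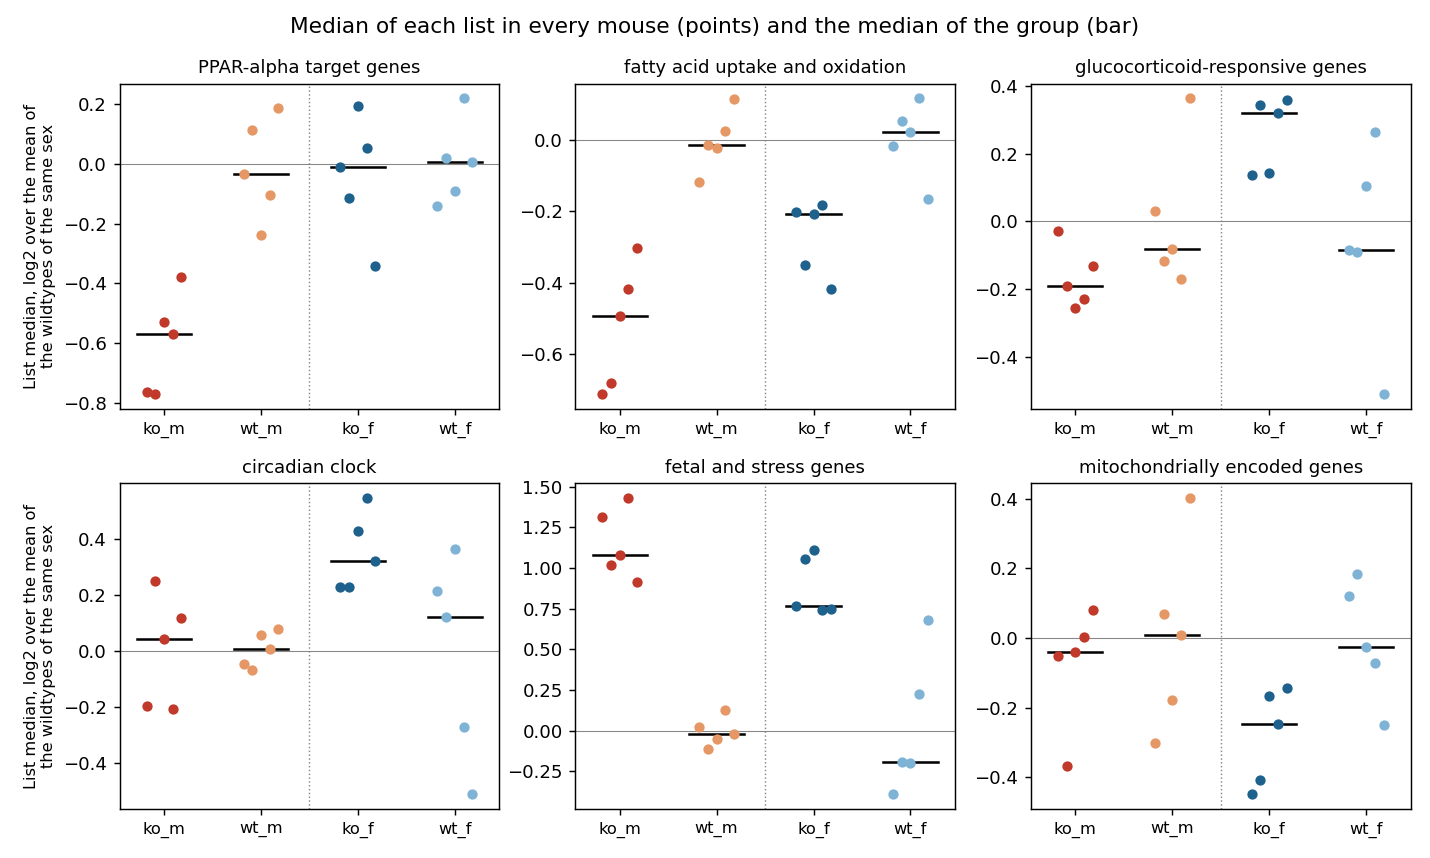
Median of 6 gene lists in every mouse, as log2 over the mean of the wildtypes of the same sex, with knockout left of wildtype in males and then in females. Points are mice and the bar is the median of the group. Knockout males lie at -0.77 to -0.38 for PPAR-alpha targets, knockout females at -0.34 to 0.20, and wt_f_144 is the lowest wildtype female for the glucocorticoid and clock lists.

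Among genes of the fetal heart and of load, 16 of 25 tested members rose and 1 fell in males, against 8.75% and 9.33% of all genes. In females 14 rose and 0 fell, against 6.04% and 6.05%, with a median change of 1.25 in males and 0.93 in females. The differences ran in either direction: 5 had an unadjusted p under 0.05 with a positive and 3 with a negative value, against 3.78% and 4.27% of all genes. The median was 0.05, and -0.06 to 0.16 with 1 mouse left out. The negative ones were Casq1, the skeletal calsequestrin, and the atrial light chains Myl4 and Myl7, which were high in samples with atrial transcripts. Nppa, which encodes atrial natriuretic peptide, averaged 5558 ± 2338 in knockout males and 265 ± 174 in wildtype males, and 4236 ± 2315 in knockout females and 402 ± 193 in wildtype females (SD, n = 5 each). Its difference was 1.18 with a 95% interval of -0.16 to 2.51. Myh7, the beta myosin heavy chain, averaged 27322 ± 9209 in knockout males and 4643 ± 1010 in wildtype males, and 21076 ± 6884 in knockout females and 6711 ± 2413 in wildtype females, a difference of 0.84 ± 0.38 (SE; limma adjusted p = 0.57). It was 0.28 without the 4 mice with Myl7 of at least 500 and 0.52 without ko_f_151 and wt_f_144.

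Acta1, skeletal alpha-actin, went the other way within the same list. It had 21901, 24422, 26987, 31303 and 24505 in knockout males, against 7705, 5377, 6357, 7992 and 7065 in wildtype males. Female Acta1 was 15274, 13020.0, 17516, 36943 and 26547 in knockouts, against 1659.6, 2353, 2445, 5752 and 5071 in wildtypes. Neither sex had an overlap. Acta1 rose by 1.91 in males and 2.72 in females, and the difference was -0.81 with a 95% interval of -1.64 to 0.02. Gdf15, a stress cytokine, averaged 26.3 ± 8.54 in knockout males and 9.09 ± 1.84 in wildtype males, and 21.95 ± 8.66 in knockout females and 28.2 ± 15.5 in wildtype females. Its difference was 1.69 ± 0.41, and those of the calcineurin regulator Rcan1 and of the TWEAK receptor Tnfrsf12a were 1.18 ± 0.33 and 0.69 ± 0.22 (SE; limma adjusted p = 0.19, 0.22 and 0.30).

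Of the calcium handling genes, 2 of 28 had an unadjusted p under 0.05 with a positive difference and 2 with a negative one; for the sarcomere these were 3 and 2 of 37, and for ion channels 3 and 3 of 30. Among all genes these shares were 3.78% and 4.27%, so lists with 1 to 3 such genes in a direction lie within a few genes of the background. Cacna1g, a T-type calcium channel, had 186, 282, 202, 184 and 220.2 in knockout males, against 222, 199.9, 196, 159 and 188 in wildtype males. In females it had 656, 604, 298, 361 and 278 in knockouts, against 176, 170.0, 221, 145 and 228 in wildtypes. Every knockout female exceeded every wildtype female, while males overlapped. Cacna1g rose by 1.15 in females (limma adjusted p = 4.5e-04), and the difference was -1.001 ± 0.28 (SE; adjusted p = 0.22). Myom2, an M-band protein, rose by 0.58 in males (adjusted p = 0.0035) with a female change of -0.12, and Tcap, the titin cap, rose by 0.92 in females (adjusted p = 0.0053) with a male change of 0.08. The repolarizing channel Kcnh2 fell by 0.81 in males and had a change of -0.32 in females, a difference of -0.49 ± 0.17. Of the 34 RBM20 splicing targets, all tested, 2 had an unadjusted p under 0.05 with a positive difference and 1 with a negative one, with a median of 0.05. Splicing factors had 0 of 32, cytosolic ribosomal proteins 0 of 32, cell cycle genes 0 of 23 and mural cell markers 0 of 12. Immediate early genes had 4 positive and 3 negative of 24, against the same 3.78% and 4.27%, led by Rcan1, Nr4a3, Egr2 and Mafk.

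Of 47 tested matrix genes, 26 rose in males and 20 in females, against 8.75% and 6.04% of all genes, and none fell. Their median difference was 0.08. Col1a1 had a difference of 0.12 with a 95% interval of -0.42 to 0.66. Col15a1 rose by 0.91 in males (limma adjusted p = 4.2e-05) with a female change of 0.27, a difference of 0.65 ± 0.19, and the protease inhibitor Timp3 had a difference of -0.82 ± 0.28 (SE). Of the sex hormone receptors and steroid enzymes, 11 of 22 were tested, and Esr1 and Esr2, the oestrogen receptors, were not among them. The steroid dehydrogenases Hsd17b11 and Hsd17b4 were the 2 members with an unadjusted p under 0.05, at -0.48 and -0.21. Such negative differences made up 4.27% of all genes.

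**Figure D5:**
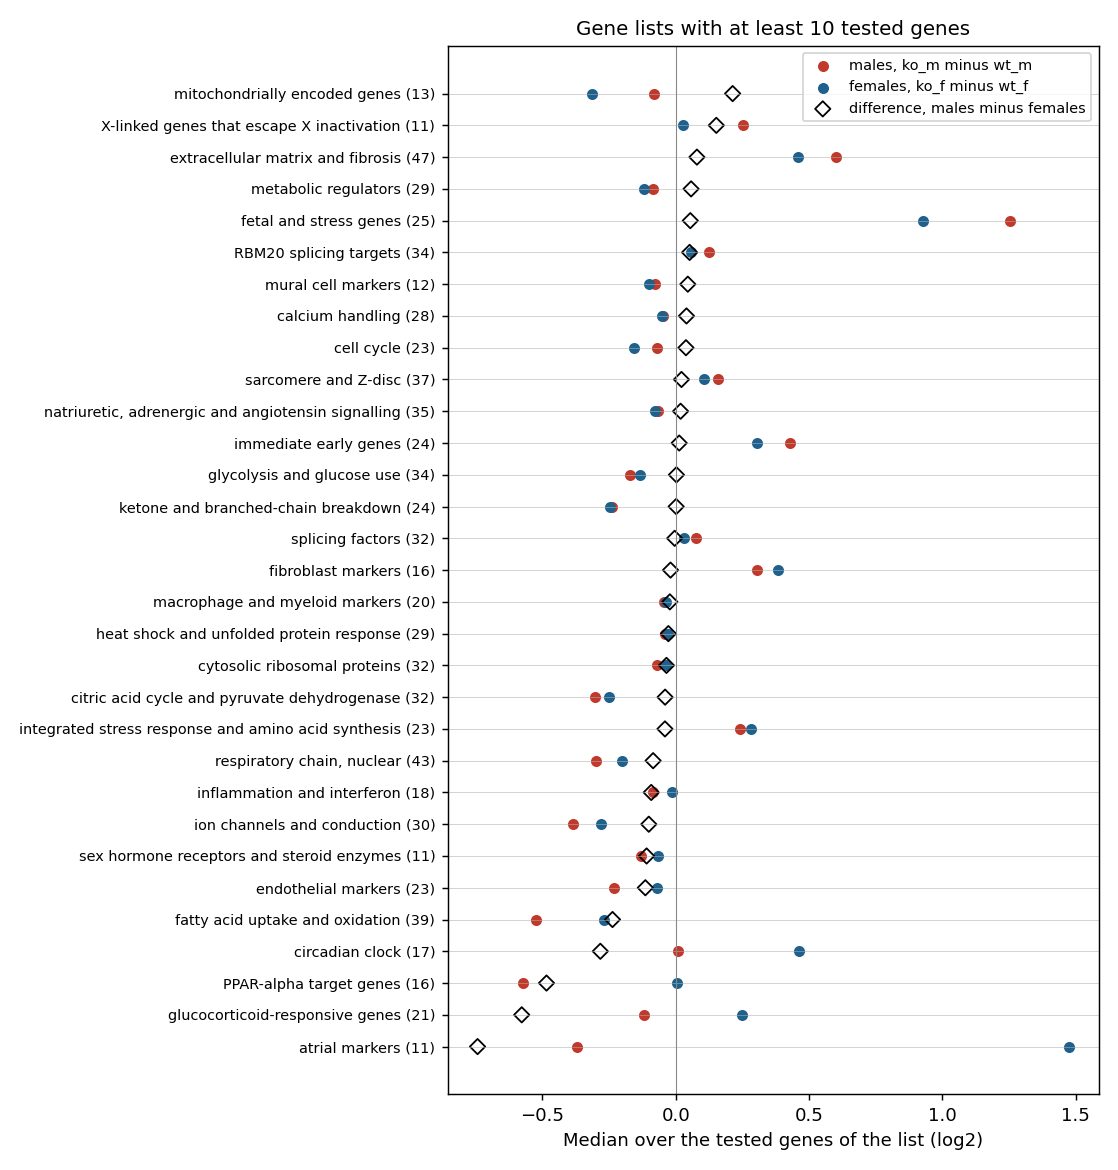
Median change in males, median change in females and median difference (males minus females), in log2, over the tested genes of each of 31 lists with at least 10 tested genes, with that number in brackets. Fatty acid genes lie below 0 in both sexes and PPAR-alpha targets in males, while fetal and stress genes lie above 0 in both.

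Marker lists of other cell types moved with some of these groups. Of the 5 tested fat cell markers, 3 had an unadjusted p under 0.05 with a negative difference, against 4.27% of all genes. These were Fabp4 (also of endothelium), Cfd and Plin4, and the median difference of the 5 was -0.57. The summed level of the 11 measured fat cell markers was 4793 to 7009 in knockout males, 7002 to 9548 in wildtype males, 7479 to 12117 in knockout females and 7664 to 8236 in wildtype females. In males most of that sum was Fabp4, at 3863 to 5835 in knockout males and 5538 to 8193 in wildtype males. Adipoq was 1.07 to 24.3 in knockout males and 3.33 to 8.40 in wildtype males, which overlapped. In females Adipoq was 29.1 to 338 in knockouts and 3.38 to 52.0 in wildtypes, and Cfd 62.7 to 984 and 2.8 to 92.9, with overlap in each. Per mouse, the median of the 5 tested markers over the wildtypes of the same sex was 0.24 to 0.52 in knockout females and -0.20 to 0.27 in wildtype females. In males it was -0.70 to 0.28 in knockouts and -0.10 to 0.12 in wildtypes. Among the markers, 0 to 2 of the 11 were at 0 in a mouse. The 23 endothelial markers summed to 16318 to 19564 in knockout males and 20706 to 24577 in wildtype males, which did not overlap. In females the sums were 21001 to 24890 in knockouts and 21546 to 28135 in wildtypes, which overlapped. The endothelial sum also holds Fabp4, at the male values above, and no sum without it was formed. Of the 23 genes, 0 rose and 3 fell in males, against 8.75% and 9.33% of all genes. In females 1 rose and 3 fell, against 6.04% and 6.05%. For the difference, 0 of the 23 had an unadjusted p under 0.05 with a positive value, against 3.78% of all genes. Fabp4 and Rgcc, 2 of the 23, had one with a negative value, against 4.27%. The median difference was -0.11, and none of the 23 was at 0 in any mouse. Mural cell markers summed to 28056 to 35542 in knockout males and 23392 to 26582 in wildtype males, which did not overlap. In females their sums were 29316 to 40036 in knockouts and 28486 to 32528 in wildtypes, which overlapped. In males most of the mural sum was Des, at 19508 to 27978 in knockouts and 14039 to 17211 in wildtypes. Of the 12 tested mural markers, 1 rose and 1 fell in males, with a median change of -0.08. The same counts held in females, with a median change of -0.10. The atrial list had a median difference of -0.74, which was -0.38 without ko_f_151, and summed to 9389 to 15695 in knockout males, 4272 to 8726 in wildtype males, 9080 to 42238 in knockout females and 5359 to 11628 in wildtype females. Nppa and Pam, which are not restricted to atria, made up most of the sum in knockout males, in which Myl7 was 0.213 to 1.58 and Myl4 10.75 to 25.5. Without the 4 mice with Myl7 of at least 500, the PPAR-alpha list had 7 of 16 members with an unadjusted p under 0.05, all negative, with a median of -0.42. The part of fat, endothelial and mural cells in the PPAR-alpha and glucocorticoid results was not tested.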

How the data were processed

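The study measured RNA of left ventricular heart tissue in 40 libraries of 20 mice, of which 39 were used, since 1 column matched no library label. Per the labels' protocols, RNA was taken with TRI Reagent and sequenced on a BGISEQ-500. STAR 2.7.10a is named in the submitters' processing notes, with GRCm39. The deposited values are a signal: the authors scaled whole gene counts with a size factor for every library, in separate tables for the sexes. Dividing out the steps of the values gave whole reads for 100% of values (tolerance 1e-06), with 2351987 to 16973229 reads per library and a median of 9043245.

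Libraries of a mouse were averaged, genes with a mean of at least 10 in both tables were kept, and log2(value + 1) was fitted in limma 3.58.1 (R 4.3.3) with a variance trend over 4 groups of 5 mice, with Benjamini-Hochberg adjustment over 12462 genes. Because the values are not counts, edgeR 4.0.16 and DESeq2 1.42.0 were run on the recovered reads as alternatives. Fold changes are on the log2(value + 1) scale. The script was tested on simulated data.

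Genes named are, per direction, the 10 with the smallest p and a mean of at least 50, up to 4 per list by p, and Rbm20, Nppa, Nppb, Myh7 and Acta1. Cpt1a, Angptl4, Txnip, Ehhadh, Acaa2, Etfb, Acadm, Acads, Crat, Ppara, Rxra, Col1a1, Myl7, Myl4, mt-Nd6 and Adipoq were added after their values were seen, as were the lists described per mouse and 3 of the printed promoters. The comparison and the gene lists were chosen with earlier results of these data known. Each mouse is a sample of its own, so p-values measure the spread between mice. Results of some genes are not reported here. The closing section gives the effect of the alternatives.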

Additional observations from a re-analysis of the deposited data

Results flagged for a closer look

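Among the genes named for the difference and the 5 genes given in every mouse, 7 values in 96 groups of 5 mice lay far from the other 4 mice of their group, where chance gives about 1 in 20 groups. In wildtype males, wt_m_124 had 276.6 for Aldh9a1, next to 246.2, and 99.1 for Rem1, next to 77.6. In knockout males, ko_m_97 had 227.6 for Ucp3, next to 101.5. In knockout females, ko_f_155 had 238 for Mhrt, next to 179. In wildtype females, wt_f_143 had 208.7 for Trim7, next to 161, wt_f_141 had 95.4 for Hcn4, next to 75.5, and wt_f_140 had 83.5 for Irf8, next to 72.9.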

How the results depend on the processing

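The number of genes whose difference passed an adjusted p of 0.05 was 0 in limma and moved to 11 with array weights, 2 with library 1 of each mouse alone, 4 with library 2 alone and 48 with DESeq2. It was 147 with libraries kept apart and the mouse as a random effect, which was chosen after seeing the data. It was 0 with other pseudocounts and filters, TMM factors, nuclear rescaling, no variance trend and edgeR, and without the mice with Myl7 of at least 500 or without ko_f_151 and wt_f_144, both also chosen after seeing the data. Leaving out 1 mouse gave 0 to 14 genes, with 14 without ko_f_95, 11 without ko_m_97, 3 without wt_f_143 and 1 without ko_f_154. The counts of changed genes ran from 1778 to 2294 in males and from 1086 to 1670 in females over the left-out mice. The mitochondrial share difference ran from -2.27 to -0.068 percentage points in males and from -5.37 to -3.39 in females, and in females its exact permutation p was under 0.05 without ko_f_95 (-5.37) and without wt_f_144 (-4.93). The difference of Rbm20 ran from -0.22 to 0.01 over the left-out mice, turning sign without ko_f_155 (0.0096), and that of mt-Nd3 from -0.05 to 0.64, turning sign without ko_f_95 (-0.046). Over the left-out mice the median difference ran from -0.06 (without wt_f_144) to 0.16 for fetal and stress genes and from -0.09 (without wt_f_144) to 0.07 for macrophage markers, so both turned sign. Over all 36 alternatives, Aldh9a1 was called in 7, Trim7 and Hcn4 in 6 each, Irf8 and Retsat in 5 each, and Fbp2, Ucp3 and Rem1 in 4 each. The causes of these moves were not tested. The random-effect fit treats each library as a row, and fits without a mouse have fewer samples. Depth limits genes of low mean, where the standard error of the difference was highest. No paired analysis was possible because no mouse number is shared between groups.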
